A study of Homo sapiens with 5 samples.

Results

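The 6p22 region described here is the 2.2 Mb of human chromosome 6 that end at position 22000000 (hg38), a stretch often amplified in bladder cancer. Its members are the 5 listed protein-coding genes ID4, MBOAT1, E2F3, CDKAL1 and SOX4, out of 19974 protein-coding records of the RefSeq gene table, and 51 of the 128040 intervals called in the whole series overlap it. The genes were listed by position, and the region itself was selected on earlier results of these same lists, such as the very wide intervals near SOX4 and CDKAL1, so the widths and calls below are descriptions and carry no test. The cells were HT1376, an established bladder carcinoma line, fixed with formaldehyde and profiled by chromatin immunoprecipitation with sequencing (ChIP-seq). There were 4 groups with 1 library each: H3K27me3 in cells given 250 nM CPI-0209, an EZH2 inhibitor, H3K27me3 in cells given DMSO, EZH2 with CPI-0209 and EZH2 with DMSO, all at 8 days. All groups are the same cell line, whose number of 6p22 copies was not measured here, and an input library named in the labels was not used here. The lists give interval positions without scores or counts, so the depth is unknown, differences between CPI-0209 and DMSO have no replicate check, and a stretch outside a list was not called rather than measured as empty.

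EZH2 is the enzyme of Polycomb repressive complex 2, which trimethylates lysine 27 of histone H3, and wide blankets of this mark (H3K27me3) cover developmental genes that are kept silent. The genes of 6p22 differ in kind. ID4 is a helix-loop-helix protein that lacks a DNA-binding region and holds other helix-loop-helix factors off DNA. SOX4 is a transcription factor of the SOXC group that acts in progenitor cells and in many carcinomas. E2F3 is a transcription factor that drives entry into DNA synthesis and is released by loss of the retinoblastoma protein, and its amplification is a known feature of bladder tumours. MBOAT1 is a lysophospholipid acyltransferase of membranes, and CDKAL1 is a tRNA-modifying methylthiotransferase known from type 2 diabetes genetics.

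The promoters are shown because their calls differ between the members: the ID4 promoter lay under EZH2 alone, the SOX4 promoter lay under all 4 lists, both E2F3 starts had EZH2 calls after CPI-0209 only, and the CDKAL1 promoter lay just beyond a DMSO H3K27me3 interval. Each sequence runs from 250 bases before to 50 bases after an annotated start (RefSeq, GRCh38.p14, plus strand), and capitals mark every CG dinucleotide. The positions are chr6:19837120-19837419 for ID4, chr6:20401629-20401928 and chr6:20403364-20403663 for E2F3, chr6:20534207-20534506 for CDKAL1 and chr6:21593501-21593800 for SOX4.
ID4: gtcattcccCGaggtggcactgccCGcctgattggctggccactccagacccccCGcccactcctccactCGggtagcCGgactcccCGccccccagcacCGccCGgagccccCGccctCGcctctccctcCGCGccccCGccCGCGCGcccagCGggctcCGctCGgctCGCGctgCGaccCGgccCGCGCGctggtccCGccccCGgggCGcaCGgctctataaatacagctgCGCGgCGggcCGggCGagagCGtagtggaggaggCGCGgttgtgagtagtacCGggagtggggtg
E2F3 upstream start: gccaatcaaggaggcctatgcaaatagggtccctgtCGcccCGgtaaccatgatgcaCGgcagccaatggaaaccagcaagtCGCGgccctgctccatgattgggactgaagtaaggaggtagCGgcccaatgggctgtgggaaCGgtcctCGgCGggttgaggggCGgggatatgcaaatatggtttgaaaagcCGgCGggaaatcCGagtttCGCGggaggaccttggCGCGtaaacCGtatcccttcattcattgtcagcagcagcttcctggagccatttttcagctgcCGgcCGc
E2F3 downstream start: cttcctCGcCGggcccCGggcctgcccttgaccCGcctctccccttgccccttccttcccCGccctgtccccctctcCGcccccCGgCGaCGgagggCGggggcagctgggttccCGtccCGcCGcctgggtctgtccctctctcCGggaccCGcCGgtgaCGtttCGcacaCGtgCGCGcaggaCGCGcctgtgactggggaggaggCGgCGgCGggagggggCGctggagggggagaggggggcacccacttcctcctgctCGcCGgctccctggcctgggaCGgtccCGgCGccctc
CDKAL1: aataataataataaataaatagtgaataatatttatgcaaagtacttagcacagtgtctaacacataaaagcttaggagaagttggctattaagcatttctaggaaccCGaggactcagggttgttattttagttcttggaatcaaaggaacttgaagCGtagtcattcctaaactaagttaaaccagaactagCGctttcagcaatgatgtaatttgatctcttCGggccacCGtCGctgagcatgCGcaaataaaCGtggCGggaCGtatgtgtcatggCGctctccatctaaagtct
SOX4: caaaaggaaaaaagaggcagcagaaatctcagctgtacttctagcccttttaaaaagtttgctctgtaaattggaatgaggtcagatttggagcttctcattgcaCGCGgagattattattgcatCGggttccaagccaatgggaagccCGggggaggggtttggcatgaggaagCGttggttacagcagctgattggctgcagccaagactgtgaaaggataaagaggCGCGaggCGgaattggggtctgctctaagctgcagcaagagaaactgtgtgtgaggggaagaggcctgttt
The ID4 promoter held 39 CG dinucleotides, and 11.2% of 22132 promoters of protein-coding genes held as many or more. The upstream and downstream E2F3 promoters held 20 and 32, the CDKAL1 promoter 11 and the SOX4 promoter 8, against a median of 21 over all promoters. The SOX4 promoter, under H3K27me3 and EZH2 in all 4 lists, was thus the poorest in CG among the 5 sequences shown. Among motifs searched on both strands, the CCAAT box (CCAAT) occurred 4 times in the SOX4 promoter, 4 times in the upstream E2F3 promoter and 1 time in the ID4 promoter, and 34.6% of all promoters held it. A TATA box (TATAAA) was found in the ID4 promoter alone of the 5, against 9.46% of all promoters. An E2F site (TTTCCCGC, TTTCGCGC, TTTGGCGC or TTTGCCGC) was found 1 time, in the upstream E2F3 promoter, against 4.11% of all promoters. These matches are letters in a window and say nothing of binding.

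Over the whole region H3K27me3 was called across 463.6 kb in CPI-0209 cells, against 1022 kb in DMSO cells. That is 21.1% of the region with CPI-0209 and 46.5% with DMSO, a ratio of 0.454 (log2 −1.14). EZH2 was called across slightly more of the region with CPI-0209, a ratio of 1.15 (log2 0.21). It covered 854.6 kb (38.8%) in CPI-0209 cells and 740.8 kb (33.7%) in DMSO cells. The ratios over all chromosomes were 0.361 for H3K27me3 and 1.17 for EZH2, and over chromosome 6 they were 0.310 and 1.04. The EZH2 ratio of the region was thus close to that of all chromosomes. Of the DMSO H3K27me3 length, 45.3% was also covered with CPI-0209, against 30.8% over chromosome 6 and 35.8% over all 23 chromosomes. The H3K27me3 calls were in 18 separate pieces with CPI-0209, of 0.2 to 78.0 kb, and in 6 domains with DMSO, of 36.4 to 339.6 kb. Of the CPI-0209 length, 1.0 kb lay outside the DMSO intervals, and it lay at E2F3. EZH2 formed 4 domains with CPI-0209 and 3 with DMSO. Some intervals of 1 list lie inside a wider one of the same list. They were 3 of 23 for H3K27me3 with CPI-0209, 6 of 15 with DMSO, 4 of 9 for EZH2 with CPI-0209 and 1 of 4 with DMSO. Any overlap with another interval of the list was found for 10, 13, 7 and 2 of them, in the same order. The lists were unlike in this: stretches under 2 intervals made up 16.8, 82.4, 55.3 and 20.5% of their covered length. Counted over stretches under 2 intervals alone, the retained share was 9.26% and the EZH2 ratio 3.11. Over all chromosomes such stretches of EZH2 covered 114.9 Mb with CPI-0209 and 34.4 Mb with DMSO.

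**Figure D1:**
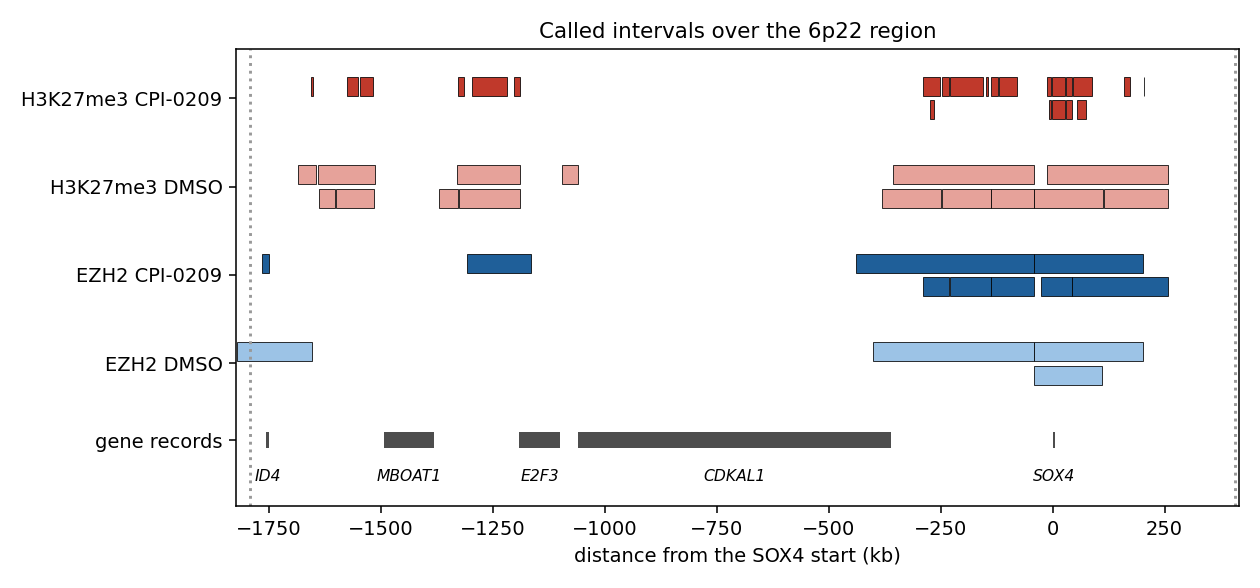
Every called interval of the 4 lists over the 6p22 region, drawn by distance from the SOX4 start in kb, with overlapping intervals of 1 list in separate lanes, gene records below and dotted lines at the ends of the region. H3K27me3 with CPI-0209 appears as 18 pieces, all but 1.0 kb of their length inside DMSO domains, the widest of them between MBOAT1 and E2F3. The widest calls of DMSO H3K27me3 and of EZH2 in both conditions lie over the stretch between CDKAL1 and SOX4.

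The 6p22 region, selected on earlier results such as its very wide intervals, was far more densely covered than the median window of its size. The ranks and widest domains given here follow in part from that selection and carry no test. The chromosomes were laid out in 1366 windows of 2.2 Mb, each from its first to its last gene record. The median window had 0.627% covered by H3K27me3 with CPI-0209 and 4.68% with DMSO, and 1.90% by EZH2 with CPI-0209 and 2.27% with DMSO. Windows without a call in any list, such as the first of chromosome 13, were kept and lower these medians. As many or more base pairs than in the 6p22 region were covered in 48, 35, 46 and 39 of those windows, in the same order of lists. The widest DMSO H3K27me3 domain of the genome (339.6 kb), the widest EZH2 domain with CPI-0209 (397.2 kb) and the widest with DMSO (358.2 kb) all lay here, over the stretch before SOX4. The widest H3K27me3 domain with CPI-0209 in the region measured 78.0 kb, and 15 domains elsewhere were wider. A long stretch without calls followed: past the right end of the region, the first H3K27me3 call began 2494.4 kb further on with CPI-0209 and 2373.0 kb further on with DMSO, and the first EZH2 call 2402.6 kb further on in both conditions.

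ID4 (chromosome 6, 19837370 to 19842197, a record of 4.83 kb) carried EZH2 without its mark over the gene record. No H3K27me3 interval came within 100.6 kb of the start with CPI-0209, or within 70.8 kb with DMSO. The EZH2 domain over the start measured 15.4 kb with CPI-0209 (19827601 to 19843000) and 167.6 kb with DMSO (19771001 to 19938600). With CPI-0209 it reached 9.77 kb upstream and 5.63 kb downstream of the start and so held little more than the gene, whereas the DMSO domain, the 12th widest of 24311 EZH2 intervals, also reached into the lncRNA record LNC-LBCS. The right end of the DMSO EZH2 domain, away from the gene, overlapped DMSO H3K27me3 over 30.4 kb. The ratio of widths was 0.0919. Among 7535 genes with a start under EZH2 in both lists the median ratio was 0.838, and 16 of them (0.212%), ID4 included, had a ratio at or below that of ID4. With gaps under 5 kb joined, 37 of 7587 did. In stretches under 2 intervals ID4 had no EZH2 call in either condition.

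Between ID4 and MBOAT1 lay H3K27me3 with almost no gene under it. It covered 57.6 kb of this stretch with CPI-0209 and 166.6 kb with DMSO. The DMSO length fell into a domain of 40.6 kb and one of 126.0 kb (19953201 to 20079200). EZH2 covered 74.9% of the 40.6 kb domain in DMSO cells and none of it in CPI-0209 cells, and 6.90% of that domain was retained, in 1 piece of 2.8 kb. The 126.0 kb domain had no EZH2 in either condition, and 43.5% of it was retained, in pieces of 26.6 and 28.2 kb. Across the genome 229 of 4087 DMSO H3K27me3 domains of 20 kb or wider had no EZH2 in either list. Of these the 126.0 kb domain was the widest, ahead of one of 56.6 kb, and no other kept as large a share of its length. The median retained share of the 229 was 0%, and 49 had any CPI-0209 piece. Its intervals touched the pseudogene RPL29P17 and the lncRNA record LOC105374965.

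MBOAT1 (20099684 to 20212469, 112.8 kb) was the one member that no interval of any list touched. The nearest H3K27me3 to its record lay 24.7 kb to the left with CPI-0209 and 10.5 kb to the right with DMSO. EZH2 lay 73.9 kb away with CPI-0209 and 161.1 kb away with DMSO.

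**Figure D2:**
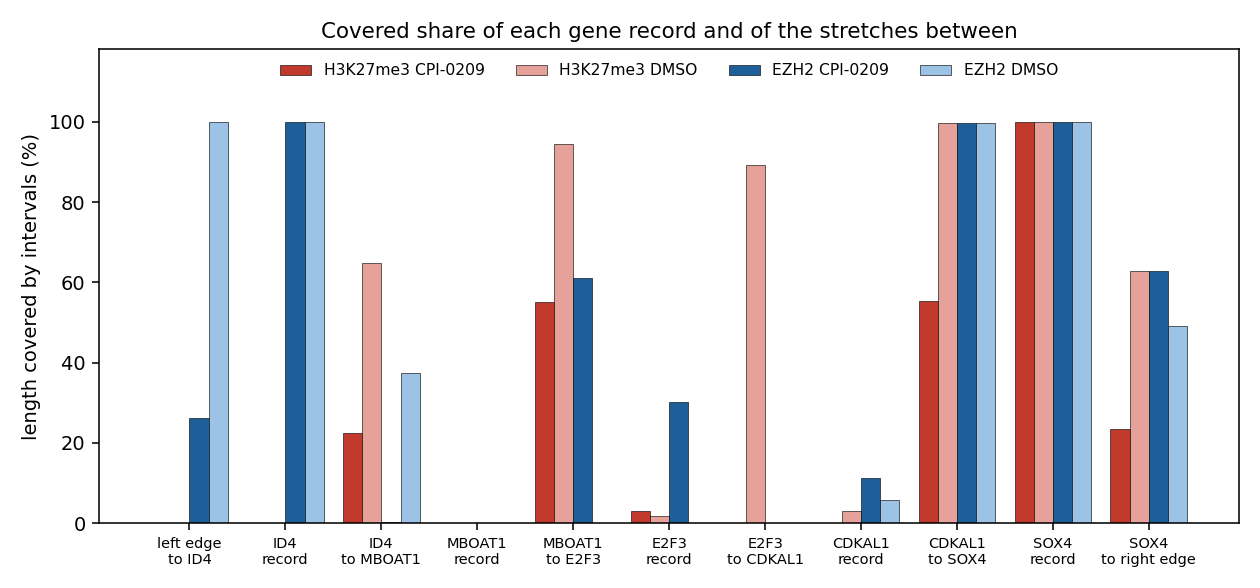
Percent of the length of each gene record, and of each stretch between records, that the intervals of each list cover; bars are single libraries with no error. MBOAT1 has no bar in any list, the ID4 record has EZH2 alone, and the SOX4 record is covered to 100% in all 4 lists.

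E2F3 (20401879 to 20493714, 91.8 kb) stood at the edge of a domain that ran from the left up to its starts. With CPI-0209 the H3K27me3 piece over the upstream start measured 15.2 kb (20389401 to 20404600), and with DMSO the domain measured 180.6 kb (20223001 to 20403600). The downstream start, at 20403614, lay inside the CPI-0209 piece, which ended 0.986 kb beyond it, and 0.014 kb outside the DMSO domain. E2F3 was thus the 1 place of the region where H3K27me3 reached further with CPI-0209 than with DMSO, by 1.0 kb. The rest of the 180.6 kb domain held CPI-0209 pieces of 13.8 and 78.0 kb, so that 58.7% of its length was retained. The 78.0 kb piece, the widest H3K27me3 interval with CPI-0209 in the region, lay over the lncRNA records LOC101928573 and LOC124901272. The 15.2 kb piece was 0.0842 of the DMSO width, against a median of 0.338 over 2445 genes with a start under H3K27me3 in both lists, of which 145 (5.93%) had a ratio that low. With gaps under 5 kb joined, 226 of 2499 (9.04%) did.

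EZH2 over E2F3 was called in CPI-0209 cells only. The CPI-0209 interval measured 143.2 kb (20286401 to 20429600), was the 20th widest of 43522, and ran 27.7 kb into the gene from the upstream start. This call rests on a single interval and was absent in stretches under 2 intervals. With DMSO the nearest EZH2 interval ended 463.3 kb to the left of that start or began 790.9 kb to its right. The new EZH2 covered 64.9% of the 180.6 kb H3K27me3 domain. Of 201 DMSO H3K27me3 domains of 100 kb or wider, 3 had no DMSO EZH2 at all; 2 of the 3 were the 126.0 and 180.6 kb domains of this region. The upstream start of E2F3 lies inside LOC124901482, a protein-coding record (20400741 to 20402772) that was covered to 100% by H3K27me3 in both conditions and by EZH2 with CPI-0209 only.

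CDKAL1 (20534457 to 21232404, 697.9 kb) was the longest member and almost free of calls. No H3K27me3 touched the record with CPI-0209, and 20.8 kb of it (2.98%) were covered with DMSO, at the far end toward SOX4. EZH2 at that end covered 78.6 kb (11.3%) with CPI-0209 and 39.6 kb (5.67%) with DMSO, and the lncRNA record LOC107986578 there lay under DMSO H3K27me3 and under EZH2 in both conditions. Upstream, the nearest H3K27me3 was 129.9 kb away with CPI-0209, while a DMSO domain of 36.4 kb (20496801 to 20533200) stopped 1.26 kb before the start. That domain fills 89.3% of the stretch between E2F3 and CDKAL1, had no EZH2 in either list and had no CPI-0209 piece. The call at the CDKAL1 start rests on this edge: the interval filled 18.6% of the window of 2 kb either side, and none of a window of 1 kb.

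**Figure D3:**
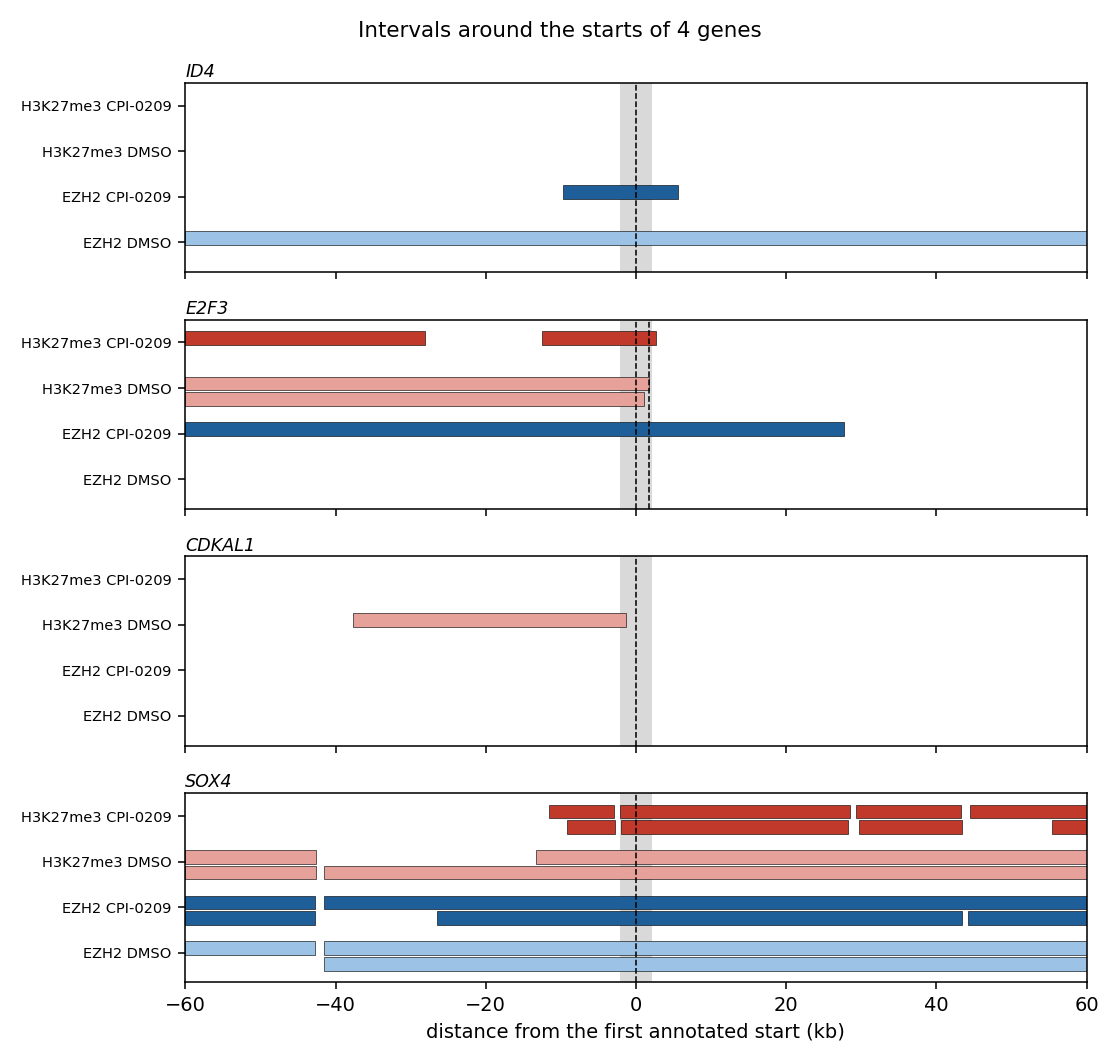
Intervals within 60 kb of the starts of ID4, E2F3, CDKAL1 and SOX4, by distance in kb from the first annotated start; dashed lines mark starts, grey bands the window of 2 kb either side. EZH2 at ID4 is 15.4 kb wide with CPI-0209 and runs past the panel with DMSO, E2F3 has EZH2 with CPI-0209 only, and the DMSO H3K27me3 at CDKAL1 ends before the start.

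The stretch between CDKAL1 and SOX4 (21232405 to 21593750, 361.3 kb) has no protein-coding gene, and 2 lncRNA records lie wholly in it, LINC00581 and LOC107986579. H3K27me3 covered 200.2 kb of it (55.4%) with CPI-0209 and 360.3 kb (99.7%) with DMSO. EZH2 covered 360.1 kb (99.7%) of it in each condition. The DMSO H3K27me3 here was 1 unbroken domain from 21211601 to 21551200 and the beginning of the next, from 21552201. With CPI-0209 the domain of 339.6 kb held 6 pieces of 4.2 to 75.4 kb that made up 55.7% of its length, although EZH2 lay over 99.9% of it in both conditions. LINC00581 was covered to 100% in all 4 lists. LOC107986579 was covered to 100% by DMSO H3K27me3 and by EZH2 in both conditions, and had no H3K27me3 with CPI-0209. A gap of 67.8 kb, between 21514400 and 21582201, had no H3K27me3 call with CPI-0209. Overlapping intervals of the same list made up 8.17% of this H3K27me3 length with CPI-0209 and 90.1% with DMSO, and 75.3% of the EZH2 length with CPI-0209 and 11.5% with DMSO.

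SOX4 (21593751 to 21598619, 4.87 kb) was covered over its full record in all 4 lists, and under 2 overlapping intervals in each. The H3K27me3 piece over its start measured 30.6 kb with CPI-0209 (21591601 to 21622200), against 298.8 kb with DMSO (21552201 to 21851000). In the CPI-0209 list the piece began 2.15 kb before the start and ended 28.4 kb after it. It was not isolated: a gap of 0.6 kb parted it from a piece of 8.8 kb upstream. Gaps of 0.8 and 1.0 kb led on to pieces of 14.2 and 43.4 kb downstream. The EZH2 domain over the start measured 298.8 kb with CPI-0209, with the same bounds as the DMSO H3K27me3 domain, and 244.0 kb with DMSO (21552201 to 21796200). The width ratio of H3K27me3 was 0.102, and 208 of the 2445 genes (8.51%) had one as low. With gaps under 5 kb joined, it was 0.155 (99.4 kb against 639.4 kb), and 21.0% had one as low. Joining also fused the DMSO domain with its neighbour of 339.6 kb. The joined ratio thus refers to a wider DMSO domain than the one of 298.8 kb. The width ratio of EZH2 was 1.22. Of the 298.8 kb DMSO domain 36.7% was retained, in 6 pieces of which the widest, 43.4 kb, lay further downstream and reached into the record of the lncRNA gene CASC15. That piece also lay over LOC124901483, a protein-coding record (21664541 to 21666060) that was covered to 100% in all 4 lists, as SOX4 was.

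Set side by side, the wide domains of 6p22 kept a smaller share of their length than the median wide domain elsewhere. Over all its DMSO H3K27me3 length, however, the region kept more than the genome did (45.3 against 35.8%). The 339.6 and 298.8 kb domains are the widest and the next widest of DMSO H3K27me3 in the genome. The 4 domains of 100 kb or wider in the region kept 36.7, 43.5, 55.7 and 58.7% of their length, a median of 49.6%. Over 197 such domains elsewhere the median was 72.2% (quartiles 56.1 and 83.6%). The domains of the region were also wider, with a median width of 239.7 kb against 126.4 kb elsewhere. No test was made of these differences, since the region was chosen with its widths in view. DMSO EZH2 covered 99.9 and 81.7% of the 2 widest domains and 0% of the other 2, against a median of 86.1% elsewhere. In the region, DMSO H3K27me3 under DMSO EZH2 (613.8 kb) was retained over 48.8% of its length, and that without EZH2 (408.2 kb) over 40.0%, while over all chromosomes these shares were 68.6 and 9.71%. The H3K27me3 called with CPI-0209 lay under EZH2 of both lists for 298.8 kb, under CPI-0209 EZH2 only for 93.4 kb, under DMSO EZH2 only for 0.6 kb and under neither for 70.8 kb. EZH2 of the same condition thus covered 84.6% of H3K27me3 with CPI-0209, against 60.1% with DMSO; over all chromosomes it was 92.5% with CPI-0209 and 44.3% with DMSO. In stretches under 2 intervals it was 100% with CPI-0209 and 14.7% with DMSO in the region.

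**Figure D4:**
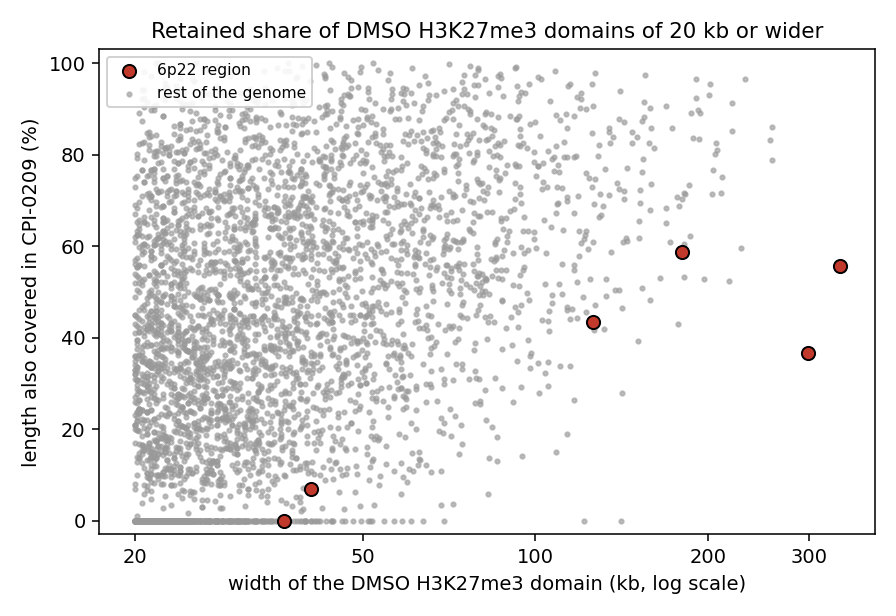
Each DMSO H3K27me3 domain of 20 kb or wider, by its width in kb (log scale) and the percent of its length also covered with CPI-0209; large red points are the 6 domains of the 6p22 region and small grey points all others. The 2 points furthest right, 339.6 and 298.8 kb wide, stand at 55.7 and 36.7%.

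Scored within 2 kb of an annotated start, 2 of the 5 members (E2F3 and SOX4) had H3K27me3 with CPI-0209 and 3 (E2F3, CDKAL1 and SOX4) with DMSO. Among 15812 protein-coding genes with a start in the table, 18.1% had it with CPI-0209 and 25.4% with DMSO. EZH2 was called at 3 members (ID4, E2F3 and SOX4) with CPI-0209 and at 2 (ID4 and SOX4) with DMSO, against 71.0% of all genes with CPI-0209 and 52.2% with DMSO. The EZH2 background turns with the handling of the lists: without intervals under 4 kb it was 34.7% with CPI-0209 and 35.8% with DMSO, and with the CPI-0209 list shortened to its widest intervals 32.1% with CPI-0209 and 52.2% with DMSO. With 5 genes chosen from 1 region, these counts are given beside the background and nothing is read from them. MBOAT1, which has no start in the table, was scored at both ends of its record. H3K27me3 was called in both conditions at 2 members (17.6% of all genes) and in DMSO only at 1 (7.77%). EZH2 was called in both conditions at 2 members (49.7%), in CPI-0209 only at 1 (21.3%) and in DMSO only at none (2.52%). No pair of members shared its pattern over the 4 lists. The pattern of ID4, EZH2 in both without H3K27me3, was that of 31.0% of genes, the empty pattern of MBOAT1 that of 23.6% and the full pattern of SOX4 that of 15.7%. The pattern of CDKAL1, DMSO H3K27me3 alone, was that of 2.64% of genes, and that of E2F3, all but DMSO EZH2, that of 1.62%.

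The members were then set beside their paralogs and pathway partners, where the shares of all genes just given are the background. List genes without a start in the table were scored at either end of their record, so their calls need not lie at a promoter. Of the genes named below for H3K27me3, these were SOAT2, DGAT1, CCND2, EPCAM, COL1A1, PECAM1 and CD3E. Among 4162 protein-coding genes without a start H3K27me3 was called at 27.4% with CPI-0209 and 37.5% with DMSO. EZH2 was called at 69.5% of them with CPI-0209 and 53.8% with DMSO. The counts below are descriptions, and nothing is read from a count near this background. All 4 ID genes (ID1, ID2, ID3 and ID4) had EZH2 in both conditions and none had H3K27me3. Of 8 E2F genes, E2F3 was the only one with H3K27me3 in either condition, EZH2 was called at 6 with CPI-0209 and 4 with DMSO, and E2F1, E2F2 and E2F3 had it with CPI-0209 only and E2F4 with DMSO only. SOX4 was the only 1 of 3 SOXC genes with H3K27me3; SOX12 had EZH2 in both conditions and SOX11 with CPI-0209 only. Among 9 membrane-bound O-acyltransferases, 0 had H3K27me3 with CPI-0209 and 2 with DMSO (SOAT2 and DGAT1), and 3, MBOAT1 among them, had no call at all. CDK5RAP1, the other methylthiotransferase, had no call, so that CDKAL1 was the 1 of 2 with DMSO H3K27me3. Of 15 genes of the E2F pathway 2 had H3K27me3 with CPI-0209 and 3 with DMSO: CCND2 and CDK6, a cyclin and a kinase that release E2F, had it in both conditions and TFDP1, the E2F dimer partner, in DMSO only. EZH2 was called at 12 of the 15 with CPI-0209 and 10 with DMSO. Among 10 genes of other loci amplified in bladder cancer, 1 had H3K27me3, FGFR3, in both conditions, and 8 had EZH2 in both. Expression was not measured, so the epithelial label could not be checked against marker levels; of 10 epithelial and urothelial markers, EPCAM and GATA3 had H3K27me3 in both conditions. Of 8 fibroblast, endothelial and leukocyte markers, 2 (COL1A1 and PECAM1) had H3K27me3 with CPI-0209 and 3 with DMSO (CD3E in addition).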

How the data were processed

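ChIP-seq interval lists of 4 HT1376 libraries were analysed. The deposited files hold, per the file headers, chromosome, start and end only; BWA, SICER and hg38 stand in the submitters' processing notes without role or version, and whether the input served as control is unstated. The members, gene lists and comparisons were chosen with earlier results of these data known. Positions are printed counting from 1. Overlapping intervals of a list were merged into domains, and covered and shared lengths were computed in Python 3.11.15 with numpy 2.4.6 and pandas 2.3.3, with functions tested on simulated data. Genes came from RefSeq (GRCh38.p14); starts were used for 15812 protein-coding genes on 22 chromosomes, 4 members among them, with a window of 2 kb either side and an overlap of at least 1 bp. Retained share is the percent of the DMSO length also covered with CPI-0209. No test was made, since each group has 1 library. The genes named by rule were the 5 members, the records under each list's widest interval in the region and the members of the gene lists; other records, and the marker genes, were named after their values were seen. Genes of the lists without a start were scored at either end of their record. Alternatives were stretches under 2 intervals, gaps under 5 kb joined, intervals under 4 kb left out, the longer list shortened, other windows and other bounds.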

Additional observations from a re-analysis of the deposited data

How the results depend on the processing

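Among values over the whole region and counts of members under each alternative, 40 stayed close to the reported one and 13 moved. The 40 include member counts that fell from 3 to 2. For DMSO H3K27me3 this was so under 2 intervals, with a window of 1 kb, with at least 50% covered and at both record ends. For EZH2 with CPI-0209 it was so at both record ends. No ratio of covered length changed direction. The EZH2 count of 3 members with CPI-0209 against 2 with DMSO became 1 in each under 2 intervals. Scored at both ends of the record, it became 2 in each. Of the covered shares between CDKAL1 and SOX4, 9 stayed and 7 moved: under 2 intervals H3K27me3 covered 4.52% with CPI-0209 and 89.8% with DMSO, and EZH2 75.0% with CPI-0209 and 11.5% with DMSO, and with gaps joined EZH2 in both conditions and DMSO H3K27me3 covered 100%. Stretches under 2 intervals of a list moved most: the retained share of H3K27me3 was 9.26%, the log2 ratio of covered length -3.43 for H3K27me3 and 1.64 for EZH2, and EZH2 covered 100% of H3K27me3 with CPI-0209 and 14.7% with DMSO. In such stretches 1 member (SOX4) had H3K27me3 with CPI-0209, and 1 (SOX4) had EZH2 with CPI-0209 and 1 (SOX4) with DMSO: ID4 lost EZH2 in both conditions, E2F3 lost EZH2 and H3K27me3 with CPI-0209, and CDKAL1 lost H3K27me3 in DMSO. For the region bounded by ID4 and SOX4 the retained share was 47.9%, the H3K27me3 log2 ratio -1.06, and the EZH2 share of H3K27me3 80.7% with CPI-0209 and 54.1% with DMSO. Scored at both ends of the record, 1 member (SOX4) had H3K27me3 with CPI-0209, and E2F3 lost all 3 of its calls. What an interval overlap stands for in these lists is not stated, and the cause of these moves was not tested. The CDKAL1 call in DMSO was also lost with a window of 1 kb and with at least 50% of the window covered. Shortening the longer list of each mark to its widest intervals changed no value of the region. This could not probe the region, since its intervals in those lists were wide enough to stay in. The narrowest measured 36.4 kb for DMSO H3K27me3 (rank 2295 of 41342 by width). For EZH2 with CPI-0209 it measured 15.4 kb (rank 4765 of 43522). The unchanged values are counted among those that stayed close. No paired analysis was possible because each group has 1 library.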

Other observations

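Long noncoding RNA genes made up 15 of the 28 gene records of the region. CASC15, a neuroblastoma susceptibility lncRNA whose record of 529.4 kb (chromosome 6, 21666413 to 22195820) begins downstream of SOX4, had H3K27me3 over 5.29% of its length with CPI-0209 and 34.9% with DMSO, and EZH2 over 34.9% with CPI-0209 and 24.5% with DMSO. LNC-LBCS, named for its low level in bladder cancer stem cells, lies left of ID4 (19729421 to 19804759). EZH2 covered 44.8% of it in DMSO, and no other list touched it. LOC105374970, inside CASC15, had EZH2 with CPI-0209 and H3K27me3 with DMSO, each over 100% of its record, and neither EZH2 in DMSO nor H3K27me3 with CPI-0209. Of the 23 records other than the members, 16 were touched by an interval of some list.

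Several edges recurred across lists to within 200 bp. The domains before SOX4 ended at 21551000 for EZH2 in both conditions and at 21551200 for DMSO H3K27me3, and all 3 lists began again at 21552201. DMSO H3K27me3 and CPI-0209 EZH2 both ended at 21851000, and EZH2 of both conditions had an end at 21796200. Interval ends at 21456200 for CPI-0209 EZH2 and 21456000 for DMSO H3K27me3 were followed by interval starts at 21457001 and, for H3K27me3 in both conditions, at 21456801. Such shared edges numbered 5 of 46 for CPI-0209 H3K27me3, 6 of 28 for DMSO H3K27me3, 8 of 17 for CPI-0209 EZH2 and 3 of 7 for DMSO EZH2.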
